A study of Mus musculus with 21 samples.

Results

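Troponin is the calcium switch of striated muscle, and its subunit isoforms were examined here in tumors of 2 mouse models of embryonal rhabdomyosarcoma and in normal muscle. The members are the 7 genes Tnnt1, Tnnt2, Tnnt3, Tnni1, Tnni2, Tnnc1 and Tnnc2, taken by name with every probe that the array's annotation assigns to them. Of the 7 genes, 6 had a probe, 1 each, and all 6 passed the detection filter, out of 11034 genes tested. Tnnt2, the cardiac and fetal troponin T, had no probe under its symbol and was not analysed here.

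Total RNA was measured on mouse bead arrays, 1 array per sample and 21 arrays in all. The 15 aP2-Cre tumors had the genotype aP2-Cre/+;SmoM2/+, in which Cre driven by the adipocyte promoter aP2 switches on SmoM2, an always active form of the Hedgehog receptor component Smoothened. The 3 Myogenin-Cre tumors carried the same SmoM2 allele, switched on by Cre under the Myogenin promoter of fusing muscle cells. The 3 normal muscle samples were sternocleidomastoid, a neck muscle, of SmoM2/+ mice with no Cre in the label. All mice were of mixed C57Bl/6 and 129X1/SvJ background, and no age was given. Each tumor is labelled with its own mouse number, whereas nothing states that the 3 muscle samples came from separate mice, so their spread may be technical. At a detection p-value under 0.01, the share of probes detected on an array was 32.0% to 39.8%.

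As background, troponin sits on the thin filament with actin and tropomyosin. Troponin C binds calcium, troponin I holds contraction off until it does, and troponin T ties the complex to tropomyosin. Each subunit has a slow and a fast skeletal form, encoded by separate genes, and some forms are shared with heart or are used in developing muscle. Tnnt1, Tnni1 and Tnnc1 encode the slow forms, and Tnnc1 is also the troponin C of heart. Tnnt3, Tnni2 and Tnnc2 encode the fast forms. Developing fast muscle is known to make slow troponin before the fast forms take over. The troponin T and troponin I genes lie in pairs, and the mouse annotation places Tnni2 beside Tnnt3 with 1 protein-coding gene, Lsp1, between them, and Tnnt1 beside the cardiac Tnni3 with none between.

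In both kinds of tumor all 3 slow genes were far higher than in muscle, while the fast forms were lower or did not pass the test. Levels are background-corrected, quantile-normalized log2 intensities, so a difference of 1 is a doubling. Probes differ in brightness, so a level is set against the same probe's level in another group and never against another gene's. A gene was called at an adjusted p under 0.05 in limma's moderated test over all 11034 genes. In aP2-Cre tumors against muscle 3 of the 6 troponin genes were called higher and 2 lower, where 34.0% of all genes tested were called higher and 29.8% lower (63.8% together). The same 3 lay above muscle on every array and the same 2 below it on every array, where 25.1% and 22.9% of all genes did so. In Myogenin-Cre tumors against muscle 3 were called higher and 1 lower, where 25.2% of all genes were called higher and 23.9% lower (49.1% together). There 3 troponin genes lay above muscle on every array and 2 below, where 32.1% and 30.4% of all genes did so. Shares of this size over all genes mean that the counts alone do not set the troponin genes apart. These comparisons share the 3 muscle arrays. In bulk RNA, fewer cells of a type and less RNA per cell cannot be told apart.

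**Figure D1:**
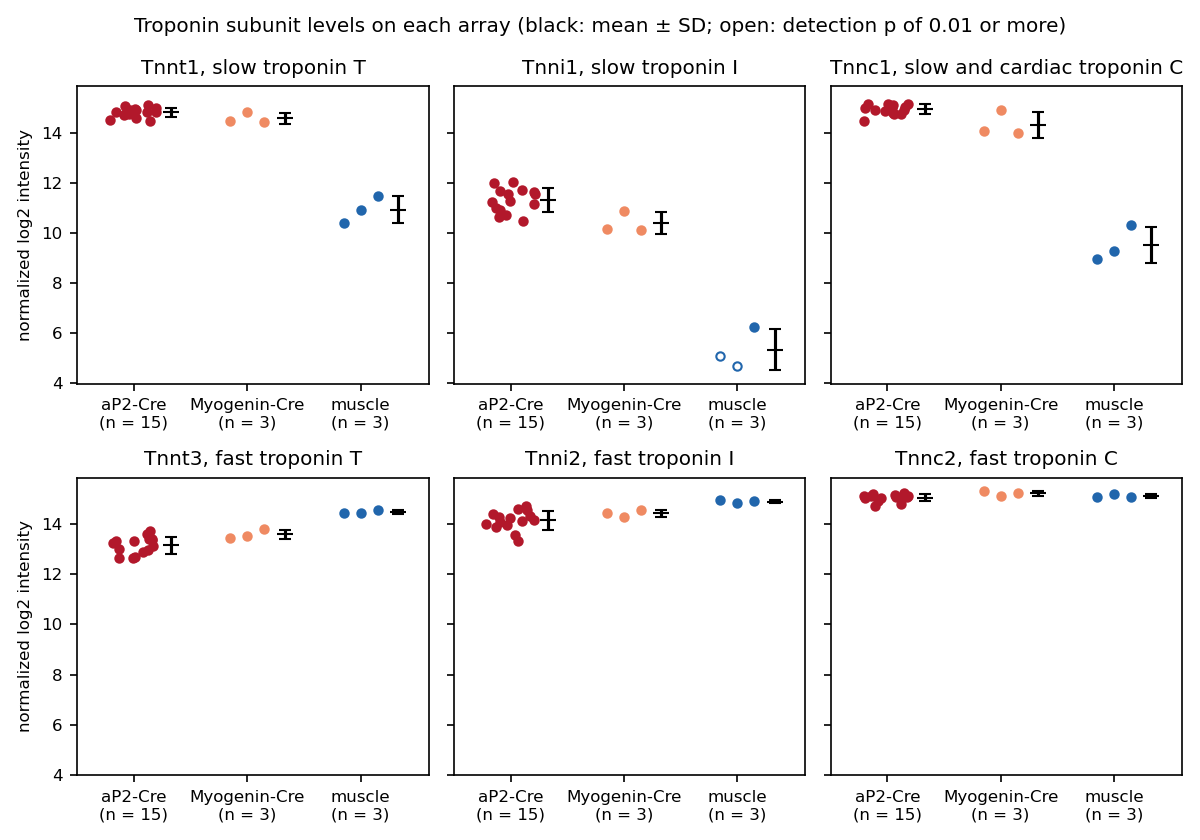
Normalized log2 intensity (vertical axes, 1 panel per gene) of the 6 troponin genes on each array, for 15 aP2-Cre tumors, 3 Myogenin-Cre tumors and 3 muscle samples. Points are arrays, open where the detection p was 0.01 or more, and black marks are the group mean ± SD. In the Tnnt1, Tnni1 and Tnnc1 panels every tumor lies above every muscle sample, and in the Tnnt3 and Tnni2 panels every tumor lies below.

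Tnnt1, the slow troponin T, was among the brightest probes of the tumors. Its level ran from 14.48 in aP2-Cre tumor 104 through a median of 14.82 to 15.11 in tumor 165. It was 14.47, 14.83 and 14.43 in Myogenin-Cre tumors 41, 42 and 43, against 10.38, 10.93 and 11.49 in muscle samples 1, 2 and 3. No tumor array came near the muscle arrays. Before correction the same signal was 22628 to 33528 intensity units over the aP2-Cre tumors and 19507 to 26421 over the Myogenin-Cre tumors, against 1229.5, 1785 and 2150.3 in muscle. The log2 difference from muscle was 3.87 (SE 0.16) in aP2-Cre tumors, with an adjusted p of 3.24e-14 in limma, and 3.64 (SE 0.20) in Myogenin-Cre tumors, with an adjusted p of 2.29e-11. For Myogenin-Cre tumors that is 12.5-fold. No fold is given for aP2-Cre tumors, where Tnnt1 ranked 17 of 11034 genes in brightness and lay at the upper end of the scale. Tnni3, the cardiac troponin I gene next to Tnnt1, was detected on 0 of the 21 arrays.

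Tnni1, the slow troponin I, was at or near background in muscle and was detected in every tumor. Its level was 10.50 in aP2-Cre tumor 95, 11.30 at the median and 12.03 in tumor 144. It was 10.15, 10.89 and 10.12 in Myogenin-Cre tumors 41, 42 and 43, against 5.09, 4.70 and 6.27 in the 3 muscle samples. Muscle sample 3 alone passed the detection threshold, and all tumors lay above it. The log2 difference from muscle was 5.96 (SE 0.31, limma adjusted p = 1.15e-12) in aP2-Cre tumors, or 62.1-fold, and 5.03 (SE 0.40, limma adjusted p = 3.05e-09) in Myogenin-Cre tumors, or 32.8-fold. The size of these folds changed with the treatment of the muscle signal near background. With the 2 undetected muscle samples set to the lowest detected signal of their arrays they became 44.8-fold and 23.6-fold, and without background correction the log2 differences were 4.02 and 3.15.

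Tnnc1, the slow and cardiac calcium-binding subunit, showed the same pattern. Its level ran from 14.46 in aP2-Cre tumor 104 through a median of 14.97 to 15.15 in tumor 64. It was 14.05, 14.92 and 13.99 in Myogenin-Cre tumors 41, 42 and 43, against 8.98, 9.27 and 10.32 in muscle. Again the groups did not overlap. Raw signals of 23847 to 38284.7 units in aP2-Cre tumors and 15523 to 27617 in Myogenin-Cre tumors stood against 495, 579.6 and 892 in muscle. The log2 difference was 5.41 (SE 0.20, limma adjusted p = 8.14e-15) in aP2-Cre tumors and 4.80 (SE 0.26, limma adjusted p = 1.24e-11) in Myogenin-Cre tumors. For Myogenin-Cre tumors this is 27.8-fold, and in aP2-Cre tumors Tnnc1 ranked 10 in brightness. Muscle sample 3 held the highest level of all 3 slow genes among the muscle samples.

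Tnnt3, the fast troponin T, went the other way. It was 12.64 in aP2-Cre tumors 115 and 174, 13.27 at the median and 13.72 in tumor 90. The Myogenin-Cre tumors had 13.44, 13.52 and 13.81, against 14.46, 14.43 and 14.57 in muscle. Every tumor lay below every muscle sample. The log2 difference was -1.32 (SE 0.18, limma adjusted p = 2.22e-06) in aP2-Cre tumors, which is 2.50-fold lower, and -0.90 (SE 0.24, limma adjusted p = 0.00366) in Myogenin-Cre tumors, 1.86-fold lower.

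Tnni2, the fast troponin I, was 13.35 in aP2-Cre tumor 115, 14.18 at the median and 14.72 in tumor 128. It was 14.45, 14.30 and 14.57 in the Myogenin-Cre tumors, against 14.96, 14.83 and 14.91 in muscle. All tumors lay below all muscle samples here too. Tnni2 ranked 14 in brightness in muscle, at the upper end of the scale, so no fold is given and the distance may be understated. It fell in aP2-Cre tumors, with a log2 difference of -0.75 (SE 0.20, limma adjusted p = 0.0024), and that call was lost with the array set as a covariate (-0.47, limma adjusted p = 0.0928). In Myogenin-Cre tumors the log2 difference was -0.46 (SE 0.26) and did not pass the test (limma adjusted p = 0.144). With the arrays centred on their medians in place of quantile normalization it was -0.97 and passed (limma adjusted p = 0.0222).

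Tnnc2, the fast troponin C, was one of the brightest signals on every array. Its level was 14.73 in aP2-Cre tumor 104, 15.10 at the median and 15.23 in tumor 89. The Myogenin-Cre tumors had 15.32, 15.13 and 15.23, against 15.08, 15.20 and 15.07 in muscle. The 3 groups overlapped, and the log2 differences from muscle were -0.05 (SE 0.09, limma adjusted p = 0.612) in aP2-Cre tumors and 0.11 (SE 0.11, limma adjusted p = 0.447) in Myogenin-Cre tumors. At the upper end of the scale, Tnnc2 ranked 4, 1 and 3 of all genes in the aP2-Cre tumors, Myogenin-Cre tumors and muscle. Under median centering both values were lower and called, -0.43 (limma adjusted p = 0.00518) and -0.41 (limma adjusted p = 0.049), so no direction is given for Tnnc2. That centering moved the median of all genes to 0.44 and 0.25, where quantile normalization left it at 0.09 and 0.06.

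**Figure D2:**
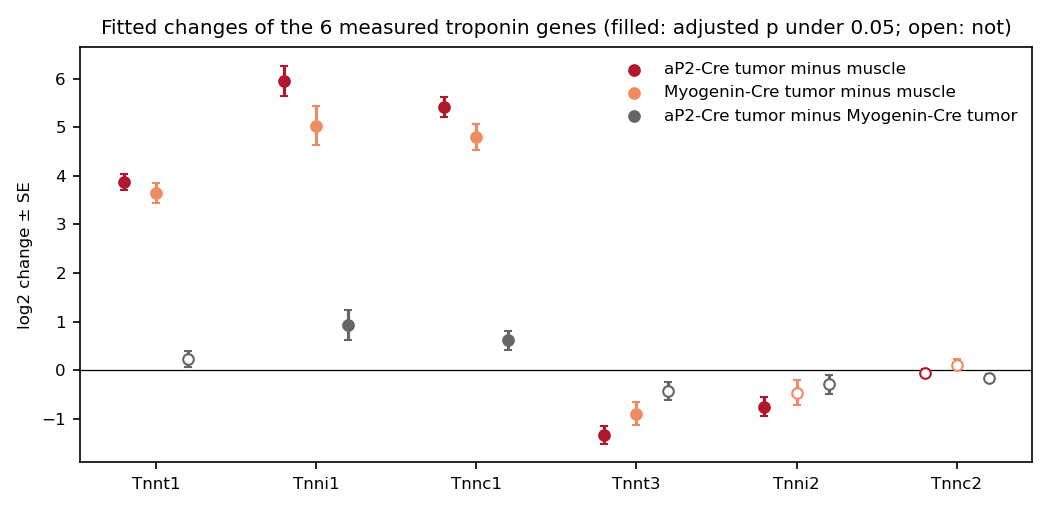
Log2 difference in level (vertical axis, ± 1 SE) of the 6 troponin genes (horizontal axis) between each tumor kind and muscle and between the tumor kinds, filled where the adjusted p was under 0.05. Against muscle Tnnt1, Tnni1 and Tnnc1 lie between 3.64 and 5.96, Tnnt3 and Tnni2 lie below 0, and Tnnc2 lies close to it.

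The difference between a slow gene and the fast gene of the same subunit, taken within each array, moved for all 3 subunits. Only the shift between groups is read from it, because each of its levels depends on 2 probes. Tnnt1 minus Tnnt3 averaged 1.65 ± 0.37 in aP2-Cre tumors (SD, n = 15) and 0.98 ± 0.35 in Myogenin-Cre tumors, against -3.55 ± 0.50 in muscle (SD, n = 3 each). Tnni1 minus Tnni2 averaged -2.84 ± 0.60 in aP2-Cre tumors and -4.05 ± 0.56 in Myogenin-Cre tumors, against -9.55 ± 0.79 in muscle. Muscle sample 3 alone had detected Tnni1, so the muscle value, its SD and the size of the troponin I shift depend on signal near background. Tnnc1 minus Tnnc2 averaged -0.13 ± 0.19, -0.90 ± 0.61 and -5.59 ± 0.74 in the same 3 groups. Tnnc2 lay at the upper end of the scale in all 3 groups and Tnnc1 in aP2-Cre tumors. That limits the size and the SD of the troponin C difference. Tnnt1 in aP2-Cre tumors (rank 17) and Tnni2 in muscle (rank 14) lay there too, which limits the troponin T and I differences. For every subunit the lowest tumor lay above the highest muscle sample. The tumor kinds overlapped for each subunit, with 1.03 to 2.30 in aP2-Cre tumors and 0.62 to 1.31 in Myogenin-Cre tumors for troponin T.

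**Figure D3:**
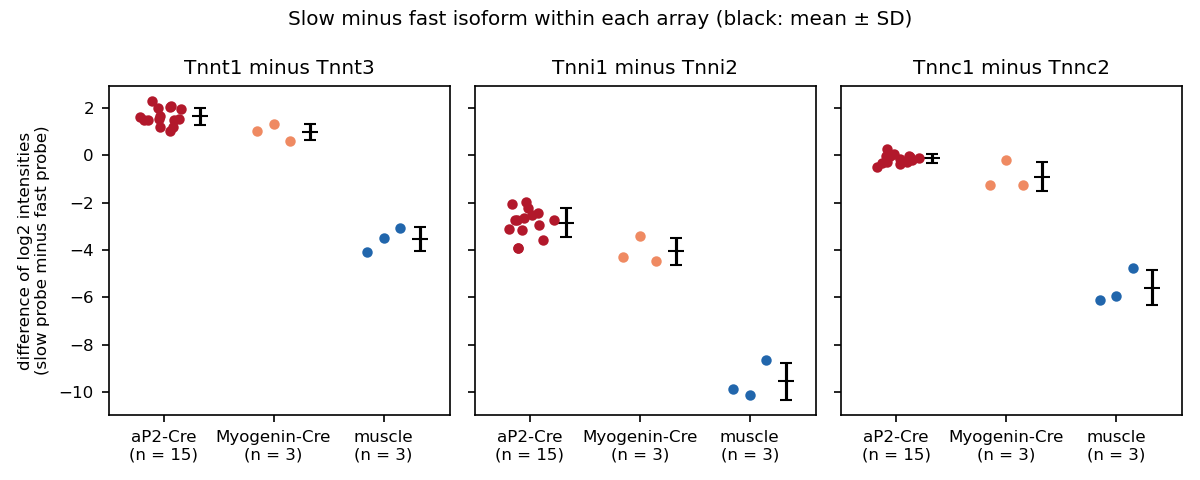
Slow minus fast troponin difference (log2 units, vertical axis) on each array for troponin T, I and C, in aP2-Cre tumors, Myogenin-Cre tumors and muscle. Points are arrays and black marks are the group mean ± SD. In each panel all tumor arrays lie above all muscle arrays, and for troponin T the muscle arrays lie between -4.08 and -3.07.

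Between aP2-Cre and Myogenin-Cre tumors 2 of the 6 troponin genes, Tnni1 and Tnnc1, were called. Tnnt1, Tnnc1 and Tnnc2 ranked 17, 10 and 4 in brightness in aP2-Cre tumors, and Tnnc2 ranked 1 in Myogenin-Cre tumors. At that end of the scale their differences may be understated. Tnni1 averaged 11.31 ± 0.48 in aP2-Cre tumors (SD, n = 15) and 10.39 ± 0.44 in Myogenin-Cre tumors (SD, n = 3), a log2 difference of 0.92 (SE 0.31, limma adjusted p = 0.0461) or 1.90-fold. Tnnc1 averaged 14.94 ± 0.19 and 14.32 ± 0.52 in the same groups, a log2 difference of 0.61 (SE 0.20, limma adjusted p = 0.0436). The groups overlapped for both genes. These 2 of 6 calls, both higher, stand beside 8.08% of all genes called higher and 7.68% called lower (15.8% together). No troponin gene was free of overlap, where 3.23% of all genes lay above on every array and 2.40% below. The remaining 4 genes did not pass the test, with log2 differences of 0.23 for Tnnt1, -0.43 for Tnnt3, -0.29 for Tnni2 and -0.16 for Tnnc2, and limma adjusted p-values of 0.335, 0.117, 0.342 and 0.22.

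Both calls were lost when only arrays of 1 set were compared with each other. Arrays with the same maximum in the authors' normalized values were taken as a set, which gave 5 sets. Shared normalization within a set is inferred, as the sample labels do not name the sets. Of these sets, 1 holds the 3 Myogenin-Cre tumors with aP2-Cre tumors 89, 90 and 95. Within that set Tnni1 differed by 0.33 (limma adjusted p = 0.51) and Tnnc1 by 0.56 (limma adjusted p = 0.346). Both calls were also lost without Myogenin-Cre tumor 41 (limma adjusted p = 0.218 for Tnni1 and 0.257 for Tnnc1), without Myogenin-Cre tumor 43 (0.265 and 0.327) and without aP2-Cre tumor 115 (0.0547 for each), and the Tnni1 call without muscle sample 1 (0.0531). Myogenin-Cre tumor 42 had the highest Tnnt1, Tnni1 and Tnnc1 of its group, at 14.83, 10.89 and 14.92.

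The muscle samples share a set with aP2-Cre tumors 128, 135 and 140, and within it the contrast with muscle stood for the slow genes. There the log2 difference was 3.69 for Tnnt1 (limma adjusted p = 3.76e-05), 6.28 for Tnni1 (limma adjusted p = 1.92e-05) and 5.34 for Tnnc1 (limma adjusted p = 2.03e-05). Tnnt3 differed by -1.26 (limma adjusted p = 0.000147) and Tnni2 by -0.47 (limma adjusted p = 0.0278), while Tnnc2 differed by 0.02 (limma adjusted p = 0.879). No set holds both Myogenin-Cre tumors and muscle, so no such value exists for that contrast.

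Among the 15 aP2-Cre tumors Tnni1 varied most of the 6 genes in log2 level, with an SD of 0.48, against 0.37 for Tnni2, 0.34 for Tnnt3, 0.19 for Tnnt1 and Tnnc1 and 0.14 for Tnnc2. The members with the smallest SDs are also those nearest the top of the scale. For Tnni1, 60.7% of this variation lay between the 5 array sets, whose means ran from 10.72 to 11.72. For Tnnt3 the share was 12.9%. The fast genes Tnnt3 and Tnni2 varied together (r = 0.868, rho = 0.885, permutation p = 1e-05, the smallest that 100000 permutations give, adjusted p = 0.00015 over 15 pairs, n = 15). The relation held without tumors 115 and 174, the farthest from the Tnnt3 median (r = 0.787, adjusted permutation p = 0.0206), and with each array set centred on its own mean (r = 0.924, adjusted permutation p = 0.00315). Tumor 115 was lowest in Tnni2 and, level with tumor 174, lowest in Tnnt3.

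Tnni2 and Tnnc2 also passed (r = 0.680, rho = 0.584, permutation p = 0.006, adjusted p = 0.045), but the call changed with the tumors and the scaling used. Without the 2 tumors farthest from the Tnni2 median r was 0.455 (permutation p = 0.115), and without tumor 115 it was 0.555 (adjusted permutation p = 0.158). Centred on array sets it was 0.506 (permutation p = 0.228), while with arrays centred on their medians it was 0.884 (adjusted permutation p = 0.000525). Tnnt3 and Tnnc2 passed under that median centering alone (r = 0.802, adjusted permutation p = 0.0019, against r = 0.523 and adjusted p = 0.165 with quantile normalization). No pair of slow genes passed, with r of 0.525 for Tnnt1 and Tnnc1 (rho = 0.519, permutation p = 0.0437, adjusted p = 0.165), 0.222 for Tnnt1 and Tnni1 and 0.0949 for Tnni1 and Tnnc1. Centred on array sets, Tnnt1 and Tnni1 had r = 0.666 (permutation p = 0.0319, adjusted p = 0.207), which did not pass either. Between a slow and a fast gene r ran from -0.161 to 0.369 over the 9 pairs.

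**Figure D4:**
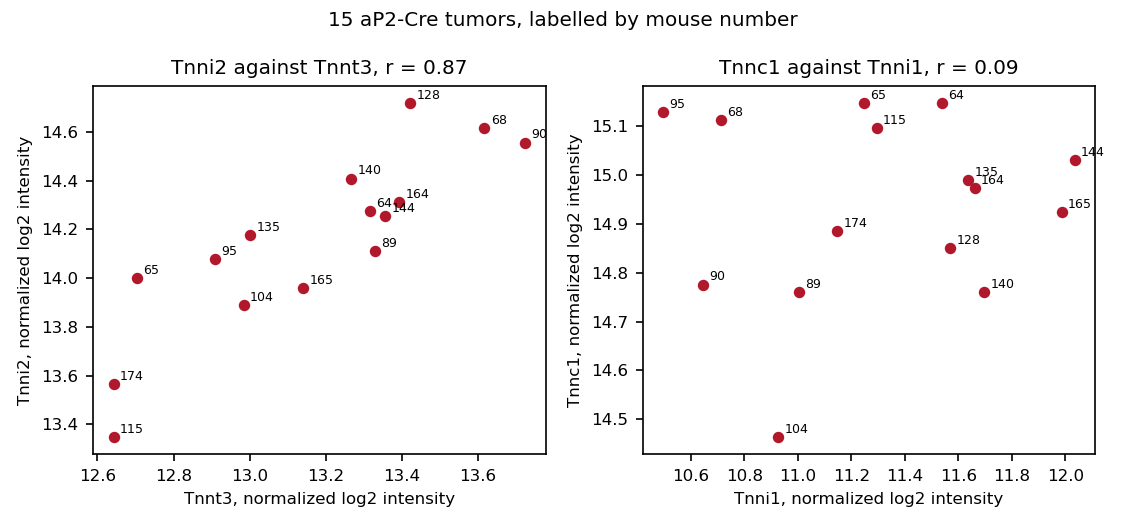
Levels of 2 pairs of troponin genes (normalized log2 intensity on both axes) in the 15 aP2-Cre tumors, each point a tumor with its mouse number. Tnni2 rises with Tnnt3 (r = 0.868), while Tnnc1 shows no clear order against Tnni1 (r = 0.0949).

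The genes whose levels followed each member most closely over the 15 aP2-Cre tumors were ranked by Pearson's r among 11028 others. The ranking is a description, since all points share the same arrays. The highest of 11028 values over 15 tumors is also large where genes are unrelated. For Tnni2 the closest was Atp2a1, the calcium pump of fast fibers (r = 0.955), followed by Ap4s1 (0.954) and Pptc7 (0.952). For Tnnt3 they were Acacb, an acetyl-CoA carboxylase (0.943), Aldh4a1 (0.920) and Slc9a2 (0.917). For Tnni1 the closest were Psmd8, a proteasome subunit (0.922), Dst (0.878) and Cyfip2 (0.857), and for Tnnt1 they were Spsb2 (0.862), Pcf11 (0.853) and Rab3gap2 (0.847). Tnnc1 was followed by Msn, which links membrane to actin (0.839), Tubgcp4 (0.833) and Rasal2 (0.826), and Tnnc2 by Elk4 (0.871), Bap1 (0.858) and Sdf4 (0.852). By Spearman's rho these last 2 sets of matches were weaker. In the same order rho was 0.682, 0.658 and 0.746 for Tnnc1 and 0.671, 0.714 and 0.564 for Tnnc2, against 0.926 for Tnni2 with Atp2a1.

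Other genes of the slow program did not all move with the slow troponins. Of 13 measured slow-fiber genes, 8 were called higher and 2 lower in aP2-Cre tumors against muscle (median log2 difference 0.89, over all genes 0.09), and 7 higher and 3 lower in Myogenin-Cre tumors (median 1.05, over all genes 0.06). Over all genes, 34.0% were called higher and 29.8% lower in aP2-Cre tumors, and 25.2% and 23.9% in Myogenin-Cre tumors. Fhl2, a LIM-domain protein of striated muscle, had log2 differences of 3.25 and 2.86 in aP2-Cre and Myogenin-Cre tumors, and Casq2, the calcium store protein of slow and heart muscle, of 2.09 and 1.82. Sln, a regulator of the calcium pump, had differences of 5.08 and 6.25, and Atp2a2, the slow and cardiac calcium pump, of 2.43 and 2.24. Myl2, the slow and ventricular regulatory light chain, did not pass the test, with 0.17 (limma adjusted p = 0.669) and 0.42 (limma adjusted p = 0.433). Myl3, the slow and ventricular essential light chain, was lower, with -3.60 and -2.17, and so was Myoz3, a Z-disc protein found mainly in fast fibers although the list holds it, with -2.94 and -2.96. Myh7, the slow myosin, was at least 3.91-fold higher in aP2-Cre tumors than in muscle, where no array detected it (limma adjusted p = 0.000118). It thus passed the filter only through the tumors. In Myogenin-Cre tumors it was detected on 2 of 3 arrays and did not pass the test (limma adjusted p = 0.287).

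Of 15 measured fast-fiber genes, 13 were called lower and 0 higher in aP2-Cre tumors, and 8 lower and 0 higher in Myogenin-Cre tumors, with median log2 differences of -2.29 and -1.85. These counts, and those of the fetal genes below, stand beside the same shares over all genes. The shares were 34.0% higher and 29.8% lower in aP2-Cre tumors, and 25.2% and 23.9% in Myogenin-Cre tumors. Myh4, the fastest myosin, had log2 differences of -6.44 and -5.41, and Gpd1, a glycerol phosphate dehydrogenase, of -4.79 and -3.85. Mylpf, the fast regulatory light chain, did not pass the test in either contrast (log2 differences 0.09 and 0.10) and, like Tnnc2, lay at the top of the scale. Fetal and regenerating muscle genes rose, 13 of 14 in each contrast, with medians of 5.03 and 4.07. The medians were 4.62 and 3.83 with genes not detected in muscle at their bound. Of the 14, 3 were not detected on any muscle array and passed the filter only through the tumors. The filter thus favored a rise for these 3. Among them Mymk, the membrane protein that drives myoblast fusion, was at least 17.7-fold higher in aP2-Cre tumors and at least 7.99-fold higher in Myogenin-Cre tumors, with no detection in muscle.

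Other thin-filament genes were called in both directions. Of 16 measured genes, 3 were higher and 8 lower in aP2-Cre tumors, where 34.0% of all genes were called higher and 29.8% lower. In Myogenin-Cre tumors 3 were higher and 7 lower, where 25.2% and 23.9% of all genes were. The medians were -0.48 and -0.54. Of the 16, 2 were not detected on any muscle array and passed the filter only through the tumors. Acta2, the smooth muscle actin, had log2 differences of 2.29 and 2.53 and Tpm1, the alpha tropomyosin, of 1.73 and 2.08. Tpm2, the beta tropomyosin, was lower, with -1.04 and -0.68. Tmod4, which caps thin filaments in skeletal muscle, had -2.13 in aP2-Cre tumors, and Lmod3, a filament nucleator, had -1.05 in Myogenin-Cre tumors. Acta1, the adult skeletal actin, did not pass the test (0.06 and 0.04), but it ranked 6, 8 and 9 in brightness in the aP2-Cre tumors, Myogenin-Cre tumors and muscle, so a change there could be missed. Of 12 heart muscle genes only 4 entered the test. The others had no usable probe or did not pass the detection filter, as Tnni3 did not, whose probe was not detected on any array. Of the 4, 2 were called higher in aP2-Cre tumors and 1 in Myogenin-Cre tumors, beside 34.0% and 25.2% of all genes. Among these was Nkx2-5, a cardiac transcription factor, at least 5.08-fold and 6.23-fold higher. It was not detected in muscle, so it passed the filter only through the tumors.

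**Figure D5:**
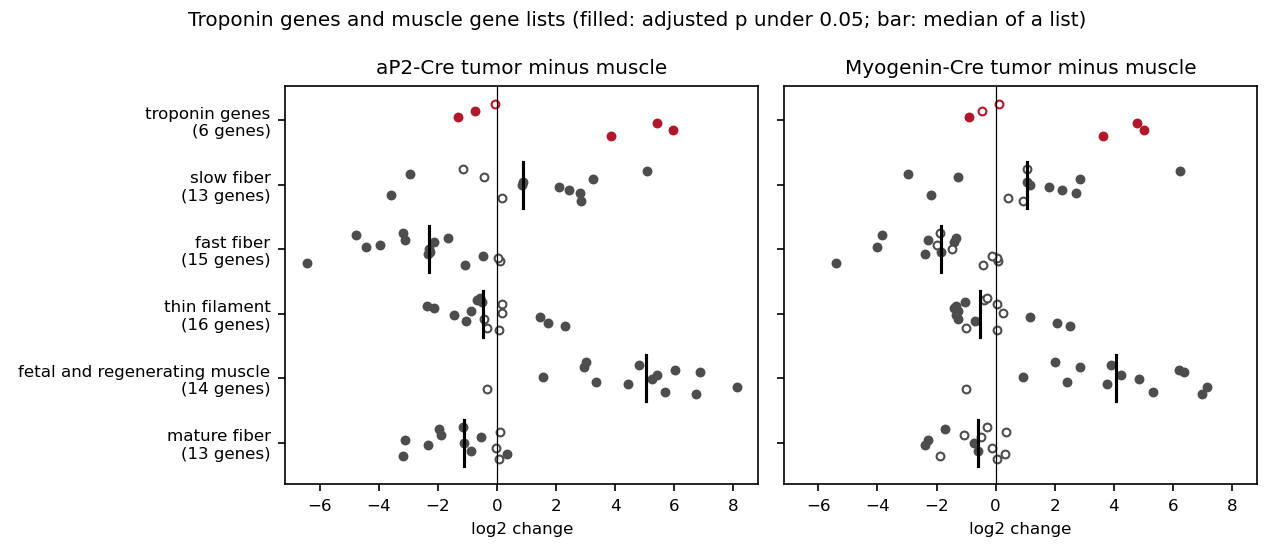
Log2 difference from muscle (horizontal axis) of each measured troponin gene and of the genes in 5 muscle lists (vertical axis), in aP2-Cre tumors and Myogenin-Cre tumors. Points are genes, filled where the adjusted p was under 0.05, and bars are medians of a list. Fetal genes lie mostly to the right and fast-fiber genes mostly to the left, while slow-fiber genes lie on both sides.

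Markers of other cells also differed between the groups, and their counts stand beside 34.0% of all genes called higher and 29.8% lower in aP2-Cre tumors, and 25.2% and 23.9% in Myogenin-Cre tumors. Of 10 adipocyte genes, 10 were lower in aP2-Cre and 8 in Myogenin-Cre tumors, and their summed linear level was 4009 to 15611 in aP2-Cre tumors and 13418 to 30356 in Myogenin-Cre tumors, against 35924 to 40906 in muscle. Plin1 alone among them was not detected on any array of a group, the Myogenin-Cre tumors. Of 11 macrophage genes, 11 were higher in aP2-Cre and 3 in Myogenin-Cre tumors, with sums of 6693 to 20708 and 3082 to 4697, against 1663 to 3011 in muscle. Of 12 fibroblast and matrix genes, 11 and 7 were higher, with sums of 54941 to 86845 and 41297 to 69881, against 19130 to 23562. Of 7 smooth muscle genes, 5 and 5 were higher and 1 and 1 lower, with sums of 18332 to 31404 and 27012 to 42280, against 6463 to 7766. In muscle, 1 fibroblast and matrix gene and 1 smooth muscle gene were not detected on any array. Each passed the filter only through the tumors. The part of these markers in the troponin differences was not tested. The labelled muscle held the markers of skeletal muscle, with Ckm, the muscle creatine kinase, at 15.10 ± 0.05 and Acta1 at 14.97 ± 0.08 (SD, n = 3). It also held Ucp1, a gene of the adipocyte list, at 11.45 ± 0.62 (SD, n = 3), detected on all 3 arrays. Ucp1 averaged 4.67 ± 0.70 in aP2-Cre tumors (SD, n = 15) and 4.94 ± 0.54 in Myogenin-Cre tumors (SD, n = 3). It was detected on only 2 of 15 and 1 of 3 of these arrays, so the tumor values lie near background. Ckm averaged 11.91 ± 1.47 in aP2-Cre tumors (SD, n = 15), a log2 difference of -3.18 (limma adjusted p = 0.000984). In Myogenin-Cre tumors its log2 difference of -1.87 did not pass the test (limma adjusted p = 0.123).

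Promoter sequence is shown for the 3 slow genes that rose together, with Tnnc2, which did not pass the test, as the fast gene for which a window was at hand. RefSeq windows of mouse GRCm38.p6, from 250 bases before to 50 after a transcript start, matched 5 of the 7 genes with 7 windows. The first window of each gene is printed 5′ to 3′ on the strand of the gene. Capitals mark E-boxes (CANNTG), the motif bound by MyoD and Myogenin, and MCAT elements (CATTCC, or GGAATG when on the other strand), the motif bound by TEAD factors. The windows are chr7:4515926-4516225 on the minus strand for Tnnt1, chr1:135799171-135799470 on the plus strand for Tnni1, chr14:31208062-31208361 on the plus strand for Tnnc1 and chr2:164779685-164779984 on the minus strand for Tnnc2.
Tnnt1: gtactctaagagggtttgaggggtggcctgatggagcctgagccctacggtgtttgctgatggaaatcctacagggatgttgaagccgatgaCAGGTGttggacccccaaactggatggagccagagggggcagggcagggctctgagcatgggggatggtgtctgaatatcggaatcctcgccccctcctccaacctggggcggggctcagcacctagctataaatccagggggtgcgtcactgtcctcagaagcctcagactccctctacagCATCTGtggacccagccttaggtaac
Tnni1: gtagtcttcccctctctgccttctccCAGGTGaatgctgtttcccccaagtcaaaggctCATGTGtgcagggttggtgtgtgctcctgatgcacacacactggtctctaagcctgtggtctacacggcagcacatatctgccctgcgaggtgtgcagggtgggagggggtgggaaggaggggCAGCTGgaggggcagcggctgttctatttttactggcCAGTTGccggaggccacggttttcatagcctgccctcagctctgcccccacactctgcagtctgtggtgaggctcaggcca
Tnnc1: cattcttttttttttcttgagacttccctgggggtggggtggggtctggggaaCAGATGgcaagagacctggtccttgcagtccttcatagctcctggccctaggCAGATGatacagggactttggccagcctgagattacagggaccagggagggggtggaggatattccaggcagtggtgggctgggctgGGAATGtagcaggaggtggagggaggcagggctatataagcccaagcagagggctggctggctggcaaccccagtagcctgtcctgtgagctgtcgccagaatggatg
Tnnc2: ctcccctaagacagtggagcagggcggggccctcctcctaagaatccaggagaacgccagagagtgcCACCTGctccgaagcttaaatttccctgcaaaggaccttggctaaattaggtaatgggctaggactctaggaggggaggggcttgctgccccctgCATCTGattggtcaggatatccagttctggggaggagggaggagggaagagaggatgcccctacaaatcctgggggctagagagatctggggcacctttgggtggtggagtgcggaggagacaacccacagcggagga
An E-box, searched on both strands, was present in all 4 windows, 4 times in Tnni1 and 2 times in each of the others, and in 72.3% of all 32851 windows of the same length. An MCAT element was present in the Tnnc1 window, on the other strand, and in 14.7% of all windows. A MEF2 motif was present in none of these windows and in 3.19% of all windows. These matches describe the letters of the windows only.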

How the data were processed

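The 21 samples (15 aP2-Cre tumor, 3 Myogenin-Cre tumor and 3 muscle) gave biotin-labelled copies of total RNA for mouse bead arrays, per the labels' protocols. For every array, the deposited table without normalization gives each probe's linear intensity and its detection p-value. A second deposited table gives linear intensity values normalized by the authors. Arrays with the same maximum in it were taken as a set, which gave 5 sets. Per the submitters' processing notes, BeadStudio was used, with version and genome build not given in the sources used here. Columns were matched to samples by label, except that swapped letters left the number 42 as the only match for 1 Myogenin-Cre tumor column.

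The intensity values were corrected with normexp from the detection p-values (offset 16) and quantile-normalized with neqc in limma 3.58.1 (R 4.3.3). Of 45281 probes, 19655 had a detection p under 0.01 on at least 3 arrays. In the platform annotation 34885 probes had 1 gene symbol, 18 several and 10378 none, and the brightest probe stood for a gene. All 21 arrays in 3 groups entered 1 limma fit with eBayes and trend, two-sided, with Benjamini-Hochberg adjustment over 11034 genes. No fold is given where a gene ranked in the top 20 in brightness in either group. Where a gene was not detected on any array of a group, the fold is a lower bound against the lowest detected signal of each array. Correlations used two-sided permutation tests run with numpy 2.4.6, with ranks from scipy 1.17.1. The fit was tested on simulated data. The number of arrays limits the precision.

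The genes named were the members, anchor genes of muscle, up to 2 genes per list and direction with the smallest adjusted p, and 3 genes most like each member. Atp2a2, Tpm2, Mylpf, Myl2, Sln in aP2-Cre tumors and Mymk against muscle were named outside that rule, after their values were seen. The members and all gene lists were chosen with earlier results of these data known. The alternatives tried covered background correction, normalization, the authors' values, the probe filter, the probe of a gene, array weights, array sets and left-out arrays.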

Additional observations from a re-analysis of the deposited data

How the results depend on the processing

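No paired analysis was possible because the 3 groups share no replicate numbers. Against muscle, Tnnt1, Tnni1, Tnnc1 and Tnnt3 kept their direction and their call under every alternative run for them, 17 planned ones for aP2-Cre tumors and 16 for Myogenin-Cre tumors. Leaving out arrays gave log2 differences of 3.60 to 4.15 for Tnnt1, 5.63 to 6.41 for Tnni1 and 5.14 to 5.81 for Tnnc1 in aP2-Cre tumors. The floor for undetected muscle samples was chosen after seeing the data. With the array set as a covariate 1 troponin gene was lower in aP2-Cre tumors, since Tnni2 was -0.47 (limma adjusted p = 0.0928), and Tnnc2 was 0.0198 there and within 1 set. In Myogenin-Cre tumors 3 troponin genes were lower under median centering and 2 with array weights, with Tnni2 at -0.97 and -0.45. Tnnc2 was -0.43 under median centering in aP2-Cre tumors, and in Myogenin-Cre tumors -0.41 under median centering and -0.23 in the authors' values. Median centering called 1722 genes lower in aP2-Cre tumors against muscle, 1398 in Myogenin-Cre tumors against muscle and 226 between tumor kinds, where quantile normalization called 3285, 2635 and 847. Between tumor kinds 891 genes were higher, and that count was 207 in the authors' values, 1661 with array weights, 201 with the set as a covariate, 33 within the shared set and 196 to 1188 with an array left out, lowest without Myogenin-Cre tumor 43 and highest without 42. The lower count was 322, 1431, 208, 12 and 170 to 1005 under the same settings. Troponin genes called higher between tumor kinds numbered 0 in the authors' values, with no filter, with the set as a covariate and within the set, and 0 to 2 with an array left out. For Tnni1 and Tnnc1 these settings gave 0.81 (limma adjusted p = 0.0803) and 0.61 (0.115) in the authors' values, 0.92 (0.0678) and 0.61 (0.0725) with no filter, 0.33 (0.625) and 0.56 (0.265) with the set as a covariate, the same differences within the set, and 0.79 to 1.17 and 0.45 to 0.91 with an array left out. The slow minus fast shift of troponin T, I and C became 5.68, 7.41 and 6.14 in aP2-Cre tumors and 4.95, 6.12 and 5.48 in Myogenin-Cre tumors under median centering. For troponin I it was 5.08 and 3.98 in the authors' values, and 0.52 between tumor kinds within the set. Of the 15 gene pairs, 2 passed, 3 did under median centering, and 1 did by Spearman's rho, without the 2 farthest tumors, centred on sets or without tumor 115. The cause of these changes was not tested. The within-set comparison was not run for Myogenin-Cre tumors and muscle, which share no set. Signal near background limits Tnni1 and Myh7 in muscle, and the top of the scale limits Tnnc2, Tnnt1 and Tnnc1, and Tnni2 in muscle.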

Other observations

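Muscle sample 3 had the highest level of several slow-fiber genes among the 3 muscle samples, beyond the slow troponins. Its summed linear level over the 13 measured slow-fiber genes was 38211, against 31186 and 27175 in the others. Its sums were also the highest of the 3 for fast-fiber genes (294287, against 290625 and 284728), mature-fiber genes (218342, against 210781 and 203880) and heart muscle genes (16301, against 14449 and 14587). Myl2, the slow and ventricular regulatory light chain, was 13.29 in it, against 12.65 and 12.63. Myh7 was 5.41, against 4.53 and 4.43, although it was not detected in any of the 3 samples. Without this sample the log2 difference of Tnnt1 between aP2-Cre tumors and muscle was 4.15, and that of Tnnc1 was 5.81.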
